A study of Homo sapiens with 6 samples.

Results

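The imprinted growth-control genes of the IGF2, H19 and CDKN1C region on human chromosome 11 were followed through cardiac organoid differentiation. The 6 genes described are IGF2, H19, CDKN1C, KCNQ1OT1, PHLDA2 and SLC22A18, taken by gene name from a table of 58735 genes, and all 6 were found. They were chosen by genomic region and by their FPKM levels over day 0 to day 30, already seen in these libraries, so their levels over the days are a description and carry no test. RNA was sequenced from H9, an established human embryonic stem cell line, at day 0, day 2, day 3, day 4, day 6 and day 30 of differentiation into cardiac organoids, which are small cultures of heart cell types grown in 3 dimensions. Each day is 1 library, with 10 organoids taken each time per the labels, and lists of 6 values below run in this order of days. All 6 groups share the line and differ in the labels only by day. The labels name no medium, factor or genotype change for any of them, so any change of culture conditions between days cannot be told apart from the day itself.

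Imprinted genes are transcribed mainly from the copy inherited from 1 parent. In the first of 2 domains here, the growth factor gene IGF2 is used mainly from the paternal copy and the noncoding RNA gene H19 from the maternal copy, and both depend on a control region near H19 that the insulator protein CTCF binds when it is not methylated. In the second domain the long noncoding RNA KCNQ1OT1, made from the paternal copy inside the potassium channel gene KCNQ1, silences neighbours in cis, among them CDKN1C, PHLDA2 and SLC22A18. Gain of IGF2 or loss of CDKN1C gives the overgrowth disorder Beckwith-Wiedemann syndrome, and in mice Igf2 made by the epicardium promotes growth of the embryonic heart. The table gives 1 value per gene and library, so the parental copies cannot be told apart.

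On GRCh38, with gene models of GENCODE release 29, the 6 genes span 934 kb of chromosome 11. H19 (ENSG00000130600) lies at chr11:1995176-2001470 on the minus strand, and IGF2 (ENSG00000167244) lies 128 kb further on, at chr11:2129112-2149603, also on the minus strand. KCNQ1OT1 (ENSG00000269821) follows after 459 kb, at chr11:2608328-2699994 on the minus strand. CDKN1C (ENSG00000129757) lies at chr11:2883213-2885773 on the minus strand, 183 kb beyond KCNQ1OT1. SLC22A18 (ENSG00000110628), the only one of the 6 on the plus strand, lies at chr11:2899721-2925246, and PHLDA2 (ENSG00000181649) at chr11:2928273-2929455 on the minus strand, 3.03 kb from it. A second row of the table also carries the name IGF2 (ENSG00000284779, chr11:2129112-2158658) and held 0 reads in all 6 libraries, so IGF2 below means the first.

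The sequences of H19 are shown because it stayed below 1 FPKM while IGF2, its partner in the domain, rose. H19 is the host of the microRNA miR-675, whose mature arms are printed 5′ to 3′ from RefSeq on GRCh38.p14, with the seed (bases 2 to 8) in capitals. The arms lie at chr11:1996800-1996822 and chr11:1996768-1996787 on the minus strand, inside the H19 gene body, and their seeds differ.
hsa-miR-675-5p: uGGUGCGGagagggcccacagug
hsa-miR-675-3p: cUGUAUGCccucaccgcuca
The promoter window printed is that of 1 RefSeq start site of H19 (GRCh38.p14, chr11:2001217-2001516, minus strand). It is 300 bases, 250 before this start site and 50 from it on, the last in capitals. This start site lies inside the table's longer H19 gene model. Windows at other start sites of H19 were not examined, so the counts below describe this window and not every promoter of the gene. Of the 6 genes, 1 was matched in the promoter table.
H19 promoter: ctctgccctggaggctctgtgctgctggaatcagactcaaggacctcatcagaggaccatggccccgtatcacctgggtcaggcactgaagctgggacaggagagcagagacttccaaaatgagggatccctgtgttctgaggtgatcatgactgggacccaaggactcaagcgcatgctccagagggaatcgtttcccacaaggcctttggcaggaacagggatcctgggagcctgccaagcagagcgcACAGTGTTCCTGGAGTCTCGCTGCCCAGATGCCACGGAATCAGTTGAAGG
This window held no GC box (GGGCGG), which 45.0% of 35116 RefSeq promoter windows of this length held on either strand. It held no TATA box (TATAAA) either, found in 11.5% of the windows. It had 6 CG dinucleotides, where the median window had 14 and 33.7% of windows had fewer than 6. Its GC content was 57.7%, where the median was 58.7% and 47.1% of windows were lower. A missing motif says only that these letters are not in this window.

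Recovered reads per library lay between 13500887 and 15526924. The deposited unit, FPKM, is a read count divided by the length of the gene and a denominator of each library, and 1 read of a gene of 1 kb was worth 0.0578 FPKM at day 6 and 0.0809 FPKM at day 30. Throughout, a gene was called higher or lower when log2(FPKM + 1) differed by at least 1 and FPKM was at least 1 in either library. Intervals are 95% and cover counting error only. Since each day has a single library, differences have no replicate check and carry no p-value. All 5 embryonic stem cell markers stood above 1 FPKM at day 0, and all 7 cardiomyocyte markers did at day 30. The labels give the cell type of every library as embryonic stem cell, but the summed stem cell markers were 3.65 FPKM at day 30, against 1035 FPKM at day 0, and NANOG was at 0 at day 30.

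Across the whole course IGF2 and CDKN1C rose far, and the other 4 members were not called. IGF2 was 163 FPKM at day 30 and 0.00986 FPKM at day 0, a log2 difference of 7.34. CDKN1C, an inhibitor of cyclin-dependent kinases that restrains the cell cycle, was 474 FPKM at day 30 and 10.1 FPKM at day 0, a log2 difference of 5.43. Of the 6 members 4 reached 1 FPKM in either library, 2 of these were called higher and 0 lower. Among all 17874 genes tested, 25.9% were called higher and 19.1% lower. Under TPM scaling, with the minimum and pseudocount kept at 1, H19 and KCNQ1OT1 also entered and were called, which gives 4 higher. More genes then passed the minimum: 24823 were tested, of which 8138 were higher. The median log2 difference of the 4 members tested in FPKM was 3.06, beside 0.13 for all genes tested. In these bulk samples, a change in the number of cells of a type and a change in RNA per cell cannot be told apart.

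**Figure D1:**
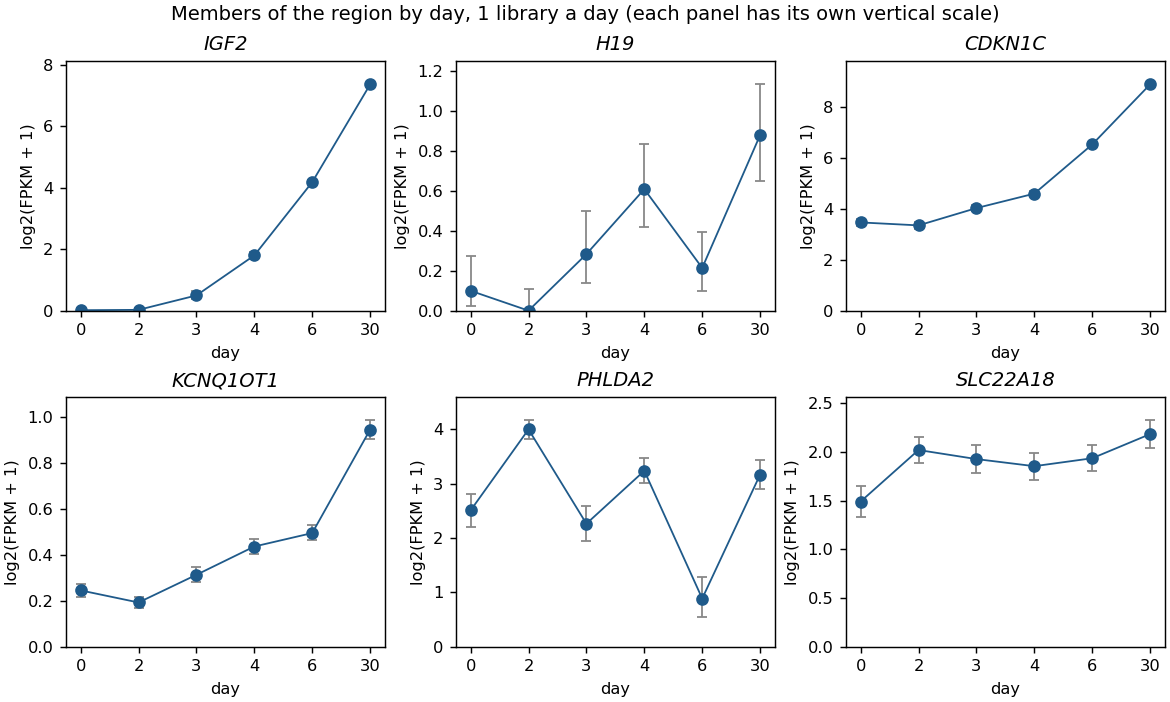
Level of each of the 6 members as log2(FPKM + 1) on the vertical axis, against day (categories, not to scale in time) on the horizontal axis. Points are 1 library each and bars are exact Poisson 95% intervals of the recovered reads, and each panel has its own vertical scale. IGF2 and CDKN1C are highest at day 30, at 7.36 and 8.89, H19 and KCNQ1OT1 stay under 1, PHLDA2 goes up and down, and SLC22A18 stays between 1.49 and 2.19.

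IGF2 is the gene of a secreted growth factor that signals through the receptors IGF1R and INSR. It held 1 read at day 0 and was called higher at the last 3 steps. Its level was 0.00986, 0.0178, 0.410, 2.48, 17.1 and 163 FPKM from day 0 to day 30, from 1, 2, 41, 273, 2068 and 14067 reads. The level was higher on each later day, and only those of days 0 and 2 have overlapping counting intervals. The rise had begun by day 3, at 23.0-fold day 2 (5.98 to 196) from 41 and 2 reads. That step was not tested, since IGF2 was below 1 FPKM on both days. At day 4 it was 6.04-fold that of day 3 (interval 4.34 to 8.61), at day 6 it was 6.92-fold that of day 4 (6.10 to 7.89), and at day 30 it was 9.52-fold that of day 6 (9.09 to 9.97). All 3 of these steps were called higher. The ratio of day 30 to day 0 was 16544, with an interval of 2969 to 653485, because day 0 held 1 read. IGF2 stood at rank 196 of all genes by FPKM at day 30 and at rank 27022 at day 0.

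Most exonic bases of IGF2 are shared with other annotated genes. Of 6979 exonic bases, 5235 (75.0%) also lie in exons of other annotated genes, 5144 of them on the same strand, in the second IGF2 row, the read-through gene INS-IGF2 and the transcript AC132217.1. INS-IGF2 and AC132217.1 held 0 reads on every day, as the second IGF2 row did. The same held across the table, where 1829 of 1894 genes with all their exonic bases shared (96.6%) held 0 reads in all 6 libraries, against 16279 of 41758 genes with no shared base (39.0%). For genes whose bases were all shared with the opposite strand only, 708 of 710 (99.7%) were at 0, the pattern that counting without strand gives when reads in shared bases are left out. The 1744 bases of IGF2 in no other gene lie nearly all in blocks 3 to 6 of its 9 exonic blocks counted from the 5′ end, and block 9, of 4112 bases, is wholly shared. If reads in shared bases are left out, the counts, folds and ranks of IGF2 rest nearly all on blocks 3 to 6. A change in the use of those blocks and a change in total IGF2 RNA cannot then be told apart. Divided by these 1744 bases alone, the reads give levels of 0.0395, 0.0712, 1.64, 9.91, 68.6 and 653 FPKM from day 0 to day 30. Folds between days are the same on either length, but the order of 2 genes is not: at day 30 IGF2 was 0.344 times CDKN1C by the deposited length and 1.38 times CDKN1C by the unshared length, a choice added after the values were seen.

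**Figure D2:**
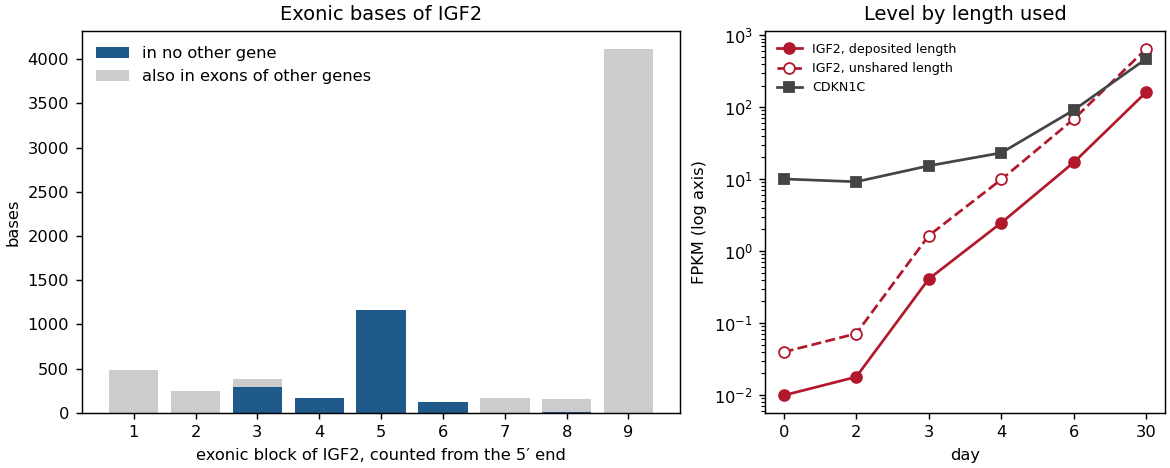
Left, bases of each of the 9 exonic blocks of IGF2 from the 5′ end, split into bases in no other gene and bases also in exons of other genes. Right, FPKM on a log axis by day for IGF2 by its deposited length and by its 1744 unshared bases, with CDKN1C, whose exons share no base; the IGF2 curve ends at 163 or 653 FPKM and CDKN1C at 474 FPKM.

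The reads counted to an antisense transcript and to a microRNA hairpin inside IGF2 were also far higher at day 30. IGF2-AS, transcribed from the opposite strand at chr11:2140501-2148666, stood at 0, 0, 0.680, 1.70, 4.46 and 14.0 FPKM from day 0 to day 30. Its 497 reads at day 30, against 0 at day 0, make it at least 195-fold higher against a floor of 3 reads. MIR483, a hairpin of 76 bases in an intron of IGF2, stood at 0, 1.63, 0.917, 0.833, 14.5 and 126 FPKM on the same days, with 118 reads at day 30 and 0 at day 0, at least 46.3-fold higher. Both were called higher at day 6 against day 4 and again at day 30 against day 6, as IGF2 was. The earlier steps differed: at day 4 against day 3, where IGF2 was called, IGF2-AS had a log2 difference of 0.68 that was not called and MIR483 was below 1 FPKM on both days, and at day 2 against day 0 MIR483 was called higher on 2 reads at day 2 and 0 at day 0. Without strand, reads of IGF2-AS outside the shared bases and reads of unspliced IGF2 RNA cannot be told apart, nor can MIR483 and unspliced IGF2 RNA. The ratio of IGF2 to IGF2-AS in FPKM was 0.602, 1.46, 3.85 and 11.6 on days 3, 4, 6 and 30, on the deposited lengths. IGF2 shares 75.0% of its exonic bases and IGF2-AS 15.9%, so each ratio is higher by unshared lengths. The order of the 2 on day 3 therefore rests on the length used.

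H19, a noncoding RNA that is abundant beside IGF2 in many fetal tissues, stayed below 1 FPKM on every day. Its level was 0.0713, 0, 0.217, 0.524, 0.160 and 0.838 FPKM from day 0 to day 30, from 3, 0, 9, 24, 8 and 30 reads. Days 30 and 4 were the highest and day 2 the lowest, and every pair of neighbours in that order of level has overlapping counting intervals. Some steps in time went beyond counting error, on few reads. Day 4 was 2.42-fold day 3 (1.09 to 5.92), and day 6 was 3.28-fold lower than day 4 (1.43 to 8.45). Day 30 was 5.25-fold day 6 (2.35 to 13.2). The 0 reads of day 2 allow a level of up to 0.0643 FPKM by the floor of 3 reads, and the exact interval ends at 0.0791 FPKM. At day 30 the ratio to day 0 was 11.8 (interval 3.66 to 60.2), from 30 reads at day 30 and 3 at day 0, and H19 entered no comparison because it reached 1 FPKM in none. By deposited lengths IGF2 was 1.89, 4.72, 107 and 195 times H19 in FPKM on days 3, 4, 6 and 30, the last with an interval of 136 to 289. By unshared lengths the ratio at day 30 was 722. The row of the miR-675 hairpin held 0 reads in all 6 libraries; its 73 bases all lie in H19 exons. Among markers of 2 tissues in which H19 is known to be abundant, 6 of 10 trophoblast markers and 1 of 7 skeletal muscle markers stood above 1 FPKM at day 30, and CGB3, PSG1, MYOD1, MYF5, MYF6 and PAX7 were at 0. The trophoblast sum was 35.4 FPKM at day 30 and 2.68 FPKM at day 0, and the skeletal muscle sum 12.7 FPKM at day 30 and 1.54 FPKM at day 0. At day 30 CKM alone gave 12.3 FPKM of the muscle sum, and KRT7 gave 12.1 and GATA3 12.0 FPKM of the trophoblast sum. The trophoblast sum was higher at day 6, at 49.7 FPKM, of which GATA3 gave 48.5. Their part in the level of H19 was not tested.

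CDKN1C was the most abundant member by deposited length on every day but day 2. It stood at 10.1, 9.20, 15.3, 23.2, 91.4 and 474 FPKM from day 0 to day 30, from 362, 367, 545, 909, 3915 and 14510 reads. Day 30 was highest, days 6, 4 and 3 followed, and days 0 and 2 have overlapping intervals. Day 3 was 1.67-fold day 2 (1.46 to 1.91) and day 4 was 1.51-fold day 3 (1.36 to 1.69), neither of which was called. Day 6 was 3.94-fold day 4 (3.66 to 4.24) and day 30 was 5.19-fold day 6 (5.01 to 5.37), both called higher. The fold of day 30 over day 0 was 47.1 (42.5 to 52.5). CDKN1C stood at rank 58 of all genes at day 30 and at rank 4498 at day 0.

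Among the CIP/KIP inhibitors, the family of CDKN1A, CDKN1B and CDKN1C, CDKN1C was the most abundant from day 4 on. It made up 26.0%, 21.1%, 24.9%, 40.5%, 75.6% and 74.1% of their summed FPKM from day 0 to day 30. CDKN1A, a p53 target, stood at 119 FPKM at day 30 and 10.3 FPKM at day 0, and CDKN1B at 45.8 FPKM at day 30 and 18.3 FPKM at day 0, both called higher. At day 6 against day 4, where CDKN1C rose, CDKN1A had 9.12 FPKM at day 6 and 16.2 FPKM at day 4, and CDKN1B had 20.4 FPKM at day 6 and 17.9 FPKM at day 4, neither of them called. The 8 proliferation markers summed to 289 FPKM at day 6 and 186 FPKM at day 4, and to 69.1 FPKM at day 30 and 491 FPKM at day 0. The 8 fibroblast and epicardial markers summed to 5464 FPKM at day 30, all 8 above 1 FPKM, and to 8.71 FPKM at day 0, where COL3A1, DCN, LUM, TCF21 and WT1 were at 0. COL3A1 alone gave 4173 FPKM of the day 30 sum. Summed fetal liver and endoderm markers were 667 FPKM at day 30, all 10 above 1 FPKM, and 0.398 FPKM at day 0, where 7 of 10 were at 0. The part of these cell types in the levels of IGF2 and CDKN1C was not tested.

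**Figure D3:**
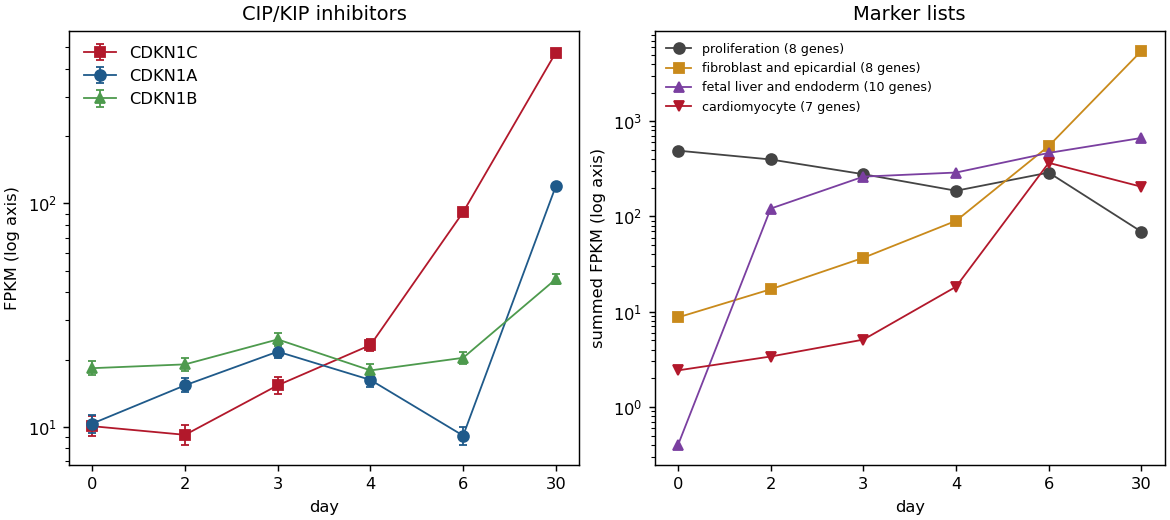
Left, FPKM on a log axis of the 3 CIP/KIP inhibitors by day, with exact Poisson 95% intervals; CDKN1C is above the other 2 from day 4 on and reaches 474 FPKM at day 30, beside 119 for CDKN1A and 45.8 for CDKN1B. Right, summed FPKM on a log axis of 4 marker lists by day; the fibroblast and epicardial sum reaches 5464 FPKM and the proliferation sum is lowest at day 30, at 69.1 FPKM.

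KCNQ1OT1, the long noncoding RNA of the CDKN1C domain, had a low level that was higher at each step after day 2 without reaching 1 FPKM. It stood at 0.185, 0.143, 0.243, 0.353, 0.410 and 0.926 FPKM from day 0 to day 30. Since the annotated transcript is 91667 bases long, these are 247, 211, 319, 512, 649 and 1049 reads. Day 30 stood above the other days beyond counting error, and the intervals of days 6 and 4, and those of days 0 and 2, overlap. The intervals of the folds between these days exclude 1 all the same. Day 6 was 1.16-fold day 4 (1.03 to 1.30), and day 2 was 1.30-fold lower than day 0 (1.08 to 1.57). The fold of day 30 over day 0 was 4.99 (4.34 to 5.76), and that of day 30 over day 6 was 2.26 (2.05 to 2.50). Its log2 difference of 0.70 between day 30 and day 0 entered no comparison, since it stayed under 1 FPKM, and the scale of log2(FPKM + 1) understates changes of so low a gene. KCNQ1, the potassium channel gene on the opposite strand whose intron holds it, stood at 1.01, 0.824, 0.690, 0.526, 1.03 and 5.92 FPKM on the same days. KCNQ1 was called higher at day 30, at 5.88-fold day 0 (4.49 to 7.80), where KCNQ1OT1 was also highest. Without strand, as the genes with opposite-strand overlaps show for this table, unspliced KCNQ1 RNA and KCNQ1OT1 cannot be told apart.

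PHLDA2, a small protein with a pleckstrin homology domain that restrains placental growth in mice, went up and down over the course. Its level was 4.68, 15.0, 3.80, 8.41, 0.848 and 7.97 FPKM from day 0 to day 30, from 65, 230, 52, 127, 14 and 94 reads. Day 2 was highest and day 6 lowest, and the intervals of days 4 and 30, and those of days 0 and 3, overlap. At day 2 it was 3.19-fold day 0 (2.41 to 4.27), and it fell to 3.80 FPKM at day 3, 3.94-fold lower than day 2 (2.91 to 5.43). At day 4 it was 2.22-fold day 3 (1.59 to 3.12), with a log2 difference of 0.97 that missed the call. At day 6 it was 9.92-fold lower than day 4 (5.70 to 18.7), and at day 30 it was 9.40-fold day 6 (5.33 to 17.8), both called. CDKN1C, its neighbour in the same domain, was called higher at day 6, so the 2 genes went opposite ways at that step: CDKN1C was 108 times PHLDA2 at day 6 (64.2 to 197) and 2.76 times at day 4 (2.29 to 3.35).

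Within the PHLDA genes, PHLDA2 made up 15.9%, 37.6%, 11.2%, 24.4%, 4.18% and 12.7% of the summed FPKM of the PHLDA genes from day 0 to day 30. PHLDA1 had 10.2 FPKM at day 6 and 18.5 FPKM at day 4, and PHLDA3 had 9.24 FPKM at day 6 and 7.48 FPKM at day 4, neither called. At day 30 against day 6 both were called higher, as PHLDA2 was. At day 2, where PHLDA2 rose, mesoderm markers summed to 870 FPKM, against 1.04 FPKM at day 0. Fetal liver and endoderm markers summed to 121 FPKM at day 2 and 0.398 FPKM at day 0. The trophoblast sum was 3.21 FPKM at day 2 and 2.68 FPKM at day 0. On days 3, 4 and 6 the mesoderm sum was 390, 312 and 284 FPKM, where PHLDA2 was 3.80, 8.41 and 0.848 FPKM. The part of cell types in the course of PHLDA2 was not tested.

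SLC22A18, a transporter of the organic cation family, was the steadiest member. It stood at 1.81, 3.06, 2.81, 2.62, 2.83 and 3.55 FPKM from day 0 to day 30, from 140, 262, 214, 220, 260 and 233 reads. Day 0 was lowest beyond counting error, and the later 5 days, taken in order of level, each overlap with the next. It was called at no step. Day 2 was 1.69-fold day 0 (1.37 to 2.09) and day 30 was 1.96-fold day 0 (1.58 to 2.43), with a log2 difference of 0.69. The overlapping antisense gene SLC22A18AS stayed at or under 0.174 FPKM on every day.

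Step by step, members were called most often at the last 2 steps. At day 2 against day 0, 3 members were tested, and 1 was higher (PHLDA2) and 0 lower, where 8.78% of 16019 genes were higher and 7.75% lower. At day 3 against day 2, 1 of 3 was lower (PHLDA2) and 0 higher, where 4.98% of 16149 genes were lower and 7.13% higher. At day 4 against day 3, 1 of 4 was higher (IGF2) and 0 lower, beside 4.23% higher and 3.59% lower of 16376 genes. At these 3 steps PHLDA2 and IGF2 were the only members called. At day 6 against day 4, 2 of 4 were higher (IGF2 and CDKN1C) and 1 lower (PHLDA2), beside 5.51% higher and 6.71% lower of 16727 genes. At day 30 against day 6, 3 of 4 were higher (IGF2, CDKN1C and PHLDA2) and 0 lower, beside 21.0% higher and 15.3% lower of 18023 genes. The median log2 differences of the tested members were 0.53, -0.09, 0.77, 1.01 and 2.32 over these 5 steps, and those of all genes -0.03, -0.02, -0.00, -0.01 and 0.08. Since the members were chosen with these values known, no more is read from these shares.

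**Figure D4:**
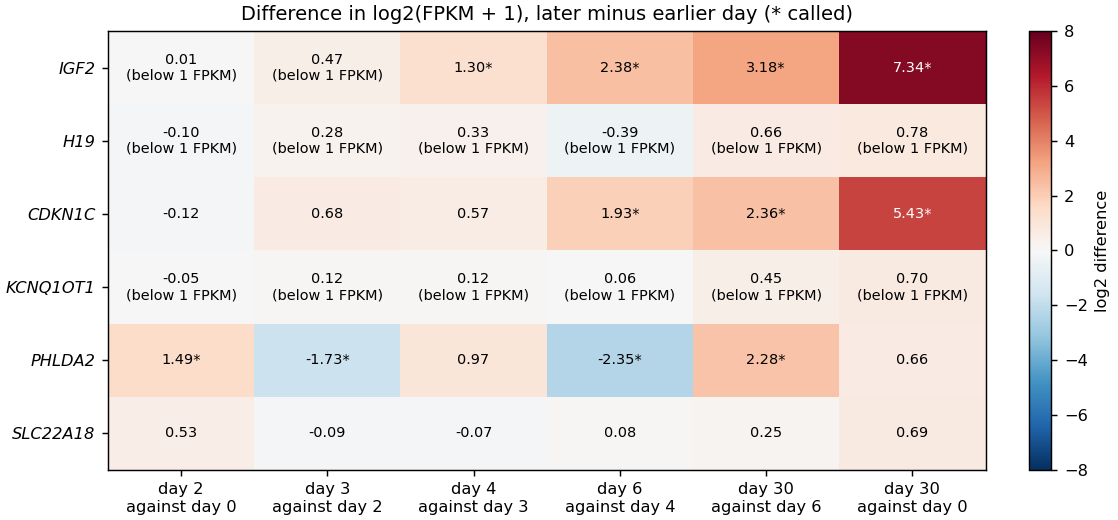
Difference in log2(FPKM + 1), later minus earlier day, for the 6 members (rows) in the 5 consecutive steps and in day 30 against day 0 (columns), on a colour scale centred on 0. Stars mark called differences, and cells marked below 1 FPKM were not tested; the extremes are 7.34 for IGF2 over the whole course and -2.35 for PHLDA2 at day 6 against day 4.

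Most other genes between and beside the members were low. The stretch from MRPL23 to OSBPL5 holds 50 rows of the table, 43 of them other than the 6 members and the second IGF2 row, and 13 of the 43 held 0 reads on every day. At day 30 against day 0, 16 of the 43 were tested, 9 were called higher and 1 lower, beside 25.9% higher and 19.1% lower of all genes, and their median log2 difference was 1.06. Besides IGF2-AS, MIR483 and KCNQ1, those above 5 FPKM on some day and called higher were OSBPL5, a lipid transfer protein (20.6 FPKM at day 30 and 1.28 FPKM at day 0), CD81, a tetraspanin (52.0 FPKM at day 30 and 22.0 FPKM at day 0), CARS, a cysteinyl-tRNA synthetase (9.01 FPKM at day 30 and 3.38 FPKM at day 0), and the small RNA row SNORA54 (12 reads at day 30 and 3 at day 0). OSBPL5 was 16.1-fold higher (13.5 to 19.3). CD81 and CARS had log2 differences of 1.20 and 1.19, close to the call at 1. Scaling by total reads moved the median of all genes by -0.19 in this comparison, so these 2 calls depend on the scaling. The 9 also include MIR4686, with 1 read at day 30 and 0 at day 0, and AC108448.2, with 10 reads and 0. IGF2-AS and MIR483 lie inside IGF2, and their reads cannot be told apart from unspliced IGF2 RNA. NAP1L4, a histone chaperone, had 20.4 FPKM at day 30 and 30.7 FPKM at day 0, and TSSC4 7.79 FPKM at day 30 and 4.09 FPKM at day 0, neither called. MRPL23, named after its value was seen as the 1 lower gene, had 0.871 FPKM at day 30 and 4.95 FPKM at day 0. The 2 nearest neighbours of CDKN1C on the chromosome among the members, SLC22A18 at 13.9 kb and PHLDA2 3.03 kb beyond it, were not called over this course.

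**Figure D5:**
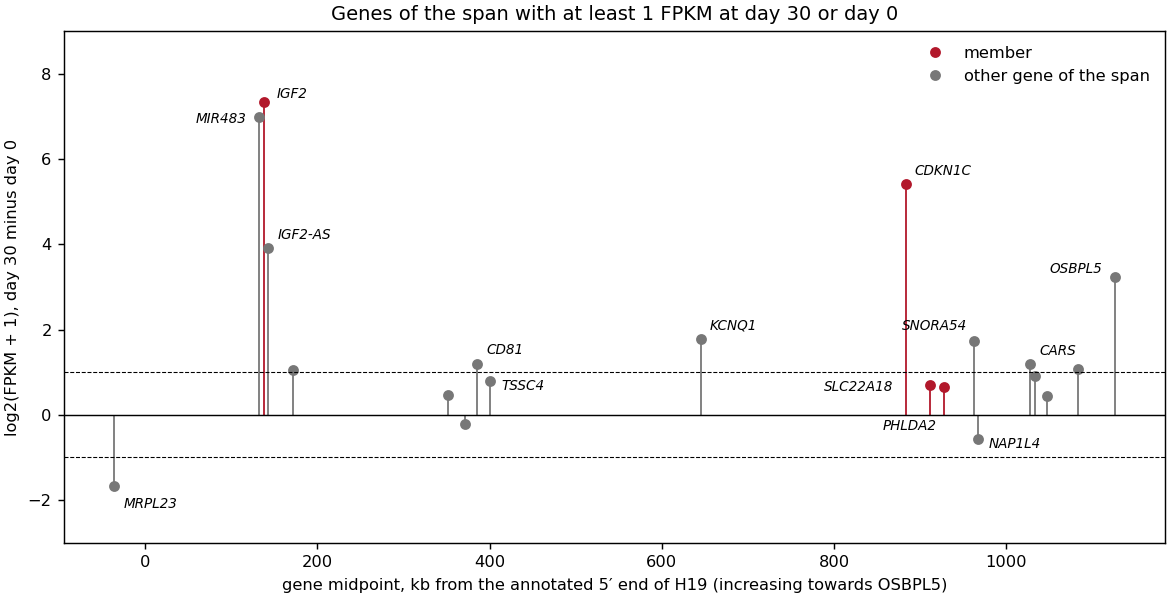
Difference in log2(FPKM + 1), day 30 minus day 0, for the 4 members and 16 other genes of the stretch that reached 1 FPKM in either library, against the distance of the gene midpoint from the 5′ end of H19 in kb. Dashed lines mark the call at 1 and -1; IGF2 at 7.34 and CDKN1C at 5.43 stand far above SLC22A18 at 0.69 and PHLDA2 at 0.66.

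Among genes that receive IGF2, the insulin receptor gene and 2 adaptors were higher at day 30. Of 9 ligands, receptors and adaptors other than IGF2, 6 were tested, 3 were higher and 1 lower, with a median log2 difference of 1.13, beside 0.13 for all genes. Over all genes tested, 25.9% were higher and 19.1% lower. The adaptors IRS2 (58.5 FPKM at day 30 and 9.13 FPKM at day 0) and IRS1 (17.9 FPKM at day 30 and 3.93 FPKM at day 0) and the receptor INSR (17.1 FPKM at day 30 and 5.18 FPKM at day 0) were higher, and the adaptor IRS4 lower (0.701 FPKM at day 30 and 2.80 FPKM at day 0). The signalling receptor IGF1R had 23.8 FPKM at day 30 and 17.0 FPKM at day 0, and IGF2R, which takes IGF2 to the lysosome, 32.6 FPKM at day 30 and 19.4 FPKM at day 0, neither called. Of the other ligands, IGF1 reached 0.128 FPKM at most, on day 6, and INS held 0 reads at days 30 and 0. The receptor gene INSRR reached 1.13 FPKM at most, on day 4. IGF2 was the only ligand of the list above 1 FPKM at day 30.

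Of 12 IGF-binding proteins and their proteases, 10 were tested, 8 were higher and 1 lower, with a median log2 difference of 3.07. Over all genes tested, 25.9% were higher and 19.1% lower, with a median of 0.13. PAPPA, a protease that frees IGF from its binding proteins, rose most, to 261 FPKM at day 30, against 0.107 FPKM at day 0. IGFBP3 had 681 FPKM at day 30 and 5.15 FPKM at day 0, IGFBP4 had 899 FPKM at day 30 and 65.4 FPKM at day 0, and IGFBP7 had 77.5 FPKM at day 30 and 0.428 FPKM at day 0. Also higher were IGFBP5 (76.0 FPKM at day 30 and 3.93 FPKM at day 0), IGFBP6 (7.28 FPKM at day 30 and 2.81 FPKM at day 0), IGFBP1 (3.67 FPKM at day 30 and 0 at day 0) and STC2, an inhibitor of PAPPA (122 FPKM at day 30 and 22.8 FPKM at day 0). The related STC1 had 72.9 FPKM at day 30 and 41.8 FPKM at day 0 and was not called, and the 1 lower gene, IGFBP2, had 46.0 FPKM at day 30 and 284 FPKM at day 0. Of the 3 IGF2 mRNA-binding proteins, IGF2BP3 was lower (6.30 FPKM at day 30 and 32.5 FPKM at day 0), and IGF2BP1 (35.8 FPKM at day 30 and 54.8 FPKM at day 0) and IGF2BP2 (58.8 FPKM at day 30 and 54.4 FPKM at day 0) were not called.

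Among 7 CDK inhibitors other than CDKN1C, 5 were tested, 4 were higher and 1 lower, with a median log2 difference of 1.81. Over all genes tested, 25.9% were higher and 19.1% lower, with a median of 0.13. Besides CDKN1A and CDKN1B, the INK4 genes CDKN2B (9.12 FPKM at day 30 and 0 at day 0) and CDKN2D (6.19 FPKM at day 30 and 1.05 FPKM at day 0) were higher. CDKN3, a phosphatase of CDKs that is known to be made by dividing cells, was lower (1.90 FPKM at day 30 and 22.5 FPKM at day 0). Of 9 cyclins and CDKs that CDKN1C can bind, 8 were tested, and CCND3 was higher (10.8 FPKM at day 30 and 1.89 FPKM at day 0) and CCNA2 lower (10.6 FPKM at day 30 and 75.9 FPKM at day 0), with a median of -0.12. Of the PHLDA genes, PHLDA3 was higher (20.2 FPKM at day 30 and 6.16 FPKM at day 0) and PHLDA1 was not called (34.4 FPKM at day 30 and 18.7 FPKM at day 0).

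Of 16 listed factors that keep or read imprints, 13 were tested, 2 were higher and 4 lower, where 25.9% of all genes were higher and 19.1% lower, with a median log2 difference of -0.45. DNMT3B, a de novo DNA methyltransferase, fell most, to 5.93 FPKM at day 30, against 409 FPKM at day 0. CTCF, which binds the H19 control region, was lower at 4.62 FPKM at day 30 and 11.3 FPKM at day 0. PLAGL1, an imprinted zinc finger gene whose mouse product activates Igf2 and other imprinted genes, rose most, to 64.2 FPKM at day 30, against 0.118 FPKM at day 0. Over the 6 days PLAGL1 stood at 0.118, 3.53, 11.1, 14.9, 10.8 and 64.2 FPKM. Of 8 chromatin factors named with KCNQ1OT1, all tested, 1 was higher and 3 lower, with a median of -0.56; RING1 was higher (39.1 FPKM at day 30 and 9.65 FPKM at day 0), and HNRNPK fell most (101 FPKM at day 30 and 219 FPKM at day 0).

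The genes most like each member over the 6 libraries were taken among 13865 protein-coding genes by the root mean square difference between log2(FPKM + 1) profiles, each centred on its own mean. For IGF2 they were TGFBI (0.43), ADGRA2 (0.67) and EPAS1 (0.72), and TGFBI stood at 1.37, 0.859, 1.04, 2.85, 21.7 and 401 FPKM from day 0 to day 30. For CDKN1C they were MBNL2 (0.25), ACTA2 (0.31) and RFTN1 (0.32), all closer to CDKN1C than IGF2 was, at 0.71. For PHLDA2 they were ARRB1 (0.36), IFITM1 (0.43) and SH2B3 (0.44); ARRB1 stood at 5.76, 13.8, 6.28, 8.41, 2.11 and 6.60 FPKM on the 6 days. The other 3 members vary so little on this scale that many genes lie near them: SGF29, CREBZF and ZNF555 for H19 (0.04 to 0.06), FCHSD1, ERMAP and LRRC57 for KCNQ1OT1 (0.04 to 0.06), and BAP1, ATP13A1 and IRGQ for SLC22A18 (0.05 to 0.07). Between members, Pearson's r over the 6 libraries, which all share one scaling, was 0.998 for IGF2 with CDKN1C, 0.972 for IGF2 with KCNQ1OT1 and -0.22 for CDKN1C with PHLDA2, given as descriptions of 6 points in which day 30 stands far from the rest.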

How the data were processed

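The authors deposited 1 table of FPKM values for 58735 genes and 6 libraries. Libraries were made from RNA captured on poly-T beads and primed with random hexamers, per the labels' protocols. The submitters' processing notes name CASAVA, HISAT2 and featureCounts 1.5.0-p3; their settings, the build and the use of strand are not stated in the sources used here, and genes whose bases are all shared with the opposite strand are nearly all at 0, as counting without strand gives. All 58735 gene identifiers, positions and lengths equal those of GENCODE release 29 on GRCh38. The product of FPKM and length took whole multiples of 1 step per library, within 0.001 read for 100% of values above 0, which gave the reads quoted; totals lay between 13500887 and 15526924.

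Members and gene lists were chosen with earlier results of these data known. Differences are of log2(FPKM + 1) with a pseudocount of 1, over the whole table, called at 1 with FPKM of at least 1 in either library. Folds have exact conditional binomial and levels exact Poisson 95% intervals, which cover counting error only, as reads carry no molecular identifiers. Where 1 library had 0 reads, folds are bounds against 3 reads in it. With 1 library per day there was no test across samples.

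Named genes are the 6 members, the 3 protein-coding genes most like each, the list members called with the largest rise and fall, all IGF, CDK inhibitor and PHLDA genes that reached 1 FPKM on a day, and neighbours that reached 5 FPKM, that overlap a member, or KCNQ1. CDKN1A and CDKN1B were also given at day 6 against day 4. IGF1, INS, CTCF, MEG3, MRPL23, MIR4686 and AC108448.2 lie outside this rule and were named after their values were seen. Alternatives were another pseudocount, other minimums, other scalings (total reads, TPM, TMM and median of ratios), protein-coding genes only, stricter calls, day 30 left out and, added after seeing the data, the unshared length of IGF2. Python 3.11.15, pandas 2.3.3, numpy 2.4.6, scipy 1.17.1 and matplotlib 3.10.9 were used, and the procedure was tested on simulated reads.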

Additional observations from a re-analysis of the deposited data

How the results depend on the processing

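No paired analysis was possible because each day had 1 library and the labels give no replicate numbers. Of 216 recomputed log2 differences of single members, no called one changed sign, 132 moved by less than their counting interval and 84 by more. The sign turned in 4, all of SLC22A18 and none called: at day 3 against day 2, -0.09 in the text, it was 0.10 under TPM and 0.12 under TPM over protein-coding genes, and at day 30 against day 6, 0.25 in the text, it was -0.09 under total reads and -0.01 under TPM over protein-coding genes. Counts of called members were more fragile. For day 30 against day 0, 4 members were higher under TPM, over all genes or over protein-coding genes, where H19 and KCNQ1OT1 entered, and 2 in the text. For day 3 against day 2, 1 was higher under TPM and 2 under TPM over protein-coding genes, where the text has 0. For day 4 against day 3, 2 were higher with a pseudocount of 0.1, 0 with a minimum of 5 FPKM and 0 with a difference of at least 2, where the text has 1. With a difference of at least 2, 0 were higher at day 2 against day 0, 0 lower at day 3 against day 2, and 1 higher at day 6 against day 4. Without day 30 the highest day was 6 for CDKN1C, IGF2 and KCNQ1OT1, 4 for H19 and 2 for SLC22A18, and SLC22A18 was also highest at day 2 under scaling by total reads. The log2 ratio of IGF2 to CDKN1C at day 30 reversed, at 0.46 by the unshared length of IGF2 and -1.54 by the deposited length. That of IGF2 to H19 was 9.50 by unshared lengths, a ratio of 722, beside 195 by deposited lengths. Scaling by total reads moved the median log2 difference of all genes by -0.19 between day 30 and day 0, and by -0.36 between day 30 and day 6. TPM moved it by 0.22 for day 3 against day 2, -0.13 for day 4 against day 3, 0.19 for day 6 against day 4 and, at day 30 against day 6, -0.28, and TMM by -0.12 for day 30 against day 6. The split of all genes then changed: at day 30 against day 6, 2569 were higher and 4300 lower under total reads and 5512 and 7209 under TPM, beside 3776 and 2761 in the text, and at day 6 against day 4, 3459 and 2693 under TPM, beside 922 and 1123. The minimum and pseudocount stayed at 1 under TPM, and more genes passed the minimum. Genes tested were 25626 at day 30 against day 6, beside 18023 in FPKM. At day 6 against day 4 they were 24387, beside 16727. Ranking by Pearson's r in place of the root mean square difference kept 2 of the 3 genes named for H19, 1 of 3 for KCNQ1OT1 and 0 of 3 for the other members. Depth limits H19 most, with 0 to 30 reads a library, and IGF2 before day 3.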

Other observations

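Imprinted genes elsewhere in the genome were set beside the region. Of 7 genes of the DLK1-DIO3 region on chromosome 14, 4 were tested at day 30 against day 0 and all 4 were higher, with a median log2 difference of 6.66; DLK1, a transmembrane protein of fetal tissues, had 1900 FPKM at day 30 and 0.0777 FPKM at day 0. MEG3, the maternal noncoding RNA of that region, stood at 0, 0.185, 0.645, 0.351, 0.0772 and 0.0383 FPKM from day 0 to day 30, highest at day 3. The course of DLK1 differed from that of IGF2 in these libraries: DLK1 stood at 0.0777, 1.08, 21.9, 38.0, 16.9 and 1900 FPKM from day 0 to day 30, with day 6 below day 4, where IGF2 was higher at each step. Of 22 other imprinted genes, 18 were tested, 4 were higher and 2 lower, where 25.9% of all genes were higher and 19.1% lower, with a median of 0.46, beside 0.13 for all genes; among them SNURF fell most, to 0.620 FPKM at day 30, against 5.21 FPKM at day 0, and PLAGL1 rose most.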
